A study of Mus musculus with 5 samples.

Results

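The expression of complement genes was described across liver sinusoidal endothelial cells (LSECs), tumor endothelial cells (TECs) and a hepatoma cell line of the mouse. The 9 genes were C1qa, C1qb, C1qc, C3, Cfb, Cfp, C3ar1, C5ar1 and Cd55, chosen by name as components, receptors and a regulator of the complement system, and every array probe that carries one of these names was taken. This gave 9 of 37074 gene names and 16 of 56605 probes. C3 and Cfb had 2 probes each, as did Cfp and C1qc, Cd55 had 4, and the other genes had 1. The study compared endothelial cells of hepatocellular carcinoma with those of the liver. RNA was labelled with Cy3 and hybridized to Agilent arrays of 60-mer probes for 5 conditions. Each condition had a single array, so that no value below has a replicate, and precision is limited by the number of arrays.

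The LSEC array held cells isolated from the liver of C57BL/6 mice. The HAK-1B TEC, Hepa1-6 TEC and KYN-2 TEC arrays held CD31-positive cells taken with magnetic beads from tumors that each line had formed in mouse liver. HAK-1B and KYN-2 (HAK1B and KYN2 in the labels) come from human liver cancer, whereas Hepa1-6 comes from a mouse hepatoma. The labels give C57BL/6 for all 3 tumor samples, whereas the methods name female C57BL/6 or BALB/c nu/nu mice without saying which bore which tumor. The fifth array held cultured Hepa1-6 cells, labelled C57L. From how many mice the RNA of each array came is not given in the sources used here. CD31 is also carried by some leukocytes and platelets, which such beads can bind.

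Complement is a cascade of plasma proteins that tags and lyses targets and calls in leukocytes. C1q, built from the products of C1qa, C1qb and C1qc, starts the classical pathway. C3 is the point where all pathways meet, factor B (Cfb) and properdin (Cfp) form and hold the alternative pathway convertase, the receptors C3ar1 and C5ar1 read the small fragments C3a and C5a, and CD55 takes convertases apart on the cell surface. In liver, hepatocytes make most circulating complement, and macrophages are a major source of C1q and properdin.

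Values are the background-subtracted probe signals on a log2 scale, quantile normalized over the 5 arrays. A level is compared only between arrays for the same probe. A probe that Agilent's software did not mark as well above background has only a bound, given as "at least". A gene was called by its brightest probe, by the size rule of the methods: flagged present on either array of a comparison, with a ratio of at least 1.5 and a Z-score of at least 2, or a ratio of at most 0.66 with a Z-score of -2 or less. A higher call then takes 7.25-fold for HAK-1B, 11.4-fold for Hepa1-6 and 6.79-fold for KYN-2 TEC. The call is a rule of size and not a test.

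Between 44.6% and 78.1% of probes were well above background, highest on the Hepa1-6 TEC array, and repeated spots varied by 2.62% to 3.08%. The 3 TEC arrays shared a slide while the LSEC and cultured cell arrays lay on others, and a slide effect cannot be told apart from the groups. The labels were checked against marker genes. All 14 pan-endothelial and all 10 measured LSEC markers were well above background on the 4 endothelial arrays, as were all 12 macrophage markers. Egfl7, the brightest pan-endothelial marker, read 17.42 on the LSEC array, 14.58 for HAK-1B, 14.86 for Hepa1-6 and 15.54 for KYN-2 TEC. Lyz2, the brightest macrophage marker, read 17.45 on the LSEC array and 18.28, 17.47 and 17.86 on the TEC arrays in the same order. On the cultured cell array, 4 of 14 pan-endothelial and 8 of 12 macrophage markers were well above background.

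Probes of both C1q neighbours with a single probe, of C3 and of Cd55 are shown as the scanner files give them, with positions on mm9, so that the measured stretch of each gene can be seen. All 4 lie on the minus strand. The C1qa probe maps to chr4:136452409-136452468 and the C1qb probe to chr4:136436578-136436637, within 1 cluster of C1q genes. The C3 probe at chr17:57343678-57343737 is the one that was called in HAK-1B TEC, and the Cd55 probe at chr1:132353415-132353474 is the one with the smallest difference of the 4, all of which were lower in every TEC. No part is in capitals, since no motif was searched in the probes.
C1qa: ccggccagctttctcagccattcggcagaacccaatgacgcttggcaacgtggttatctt
C1qb: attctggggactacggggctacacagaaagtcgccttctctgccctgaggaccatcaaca
C3: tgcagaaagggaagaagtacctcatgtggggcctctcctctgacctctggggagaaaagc
Cd55: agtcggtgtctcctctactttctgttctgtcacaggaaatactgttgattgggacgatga

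**Figure D1:**
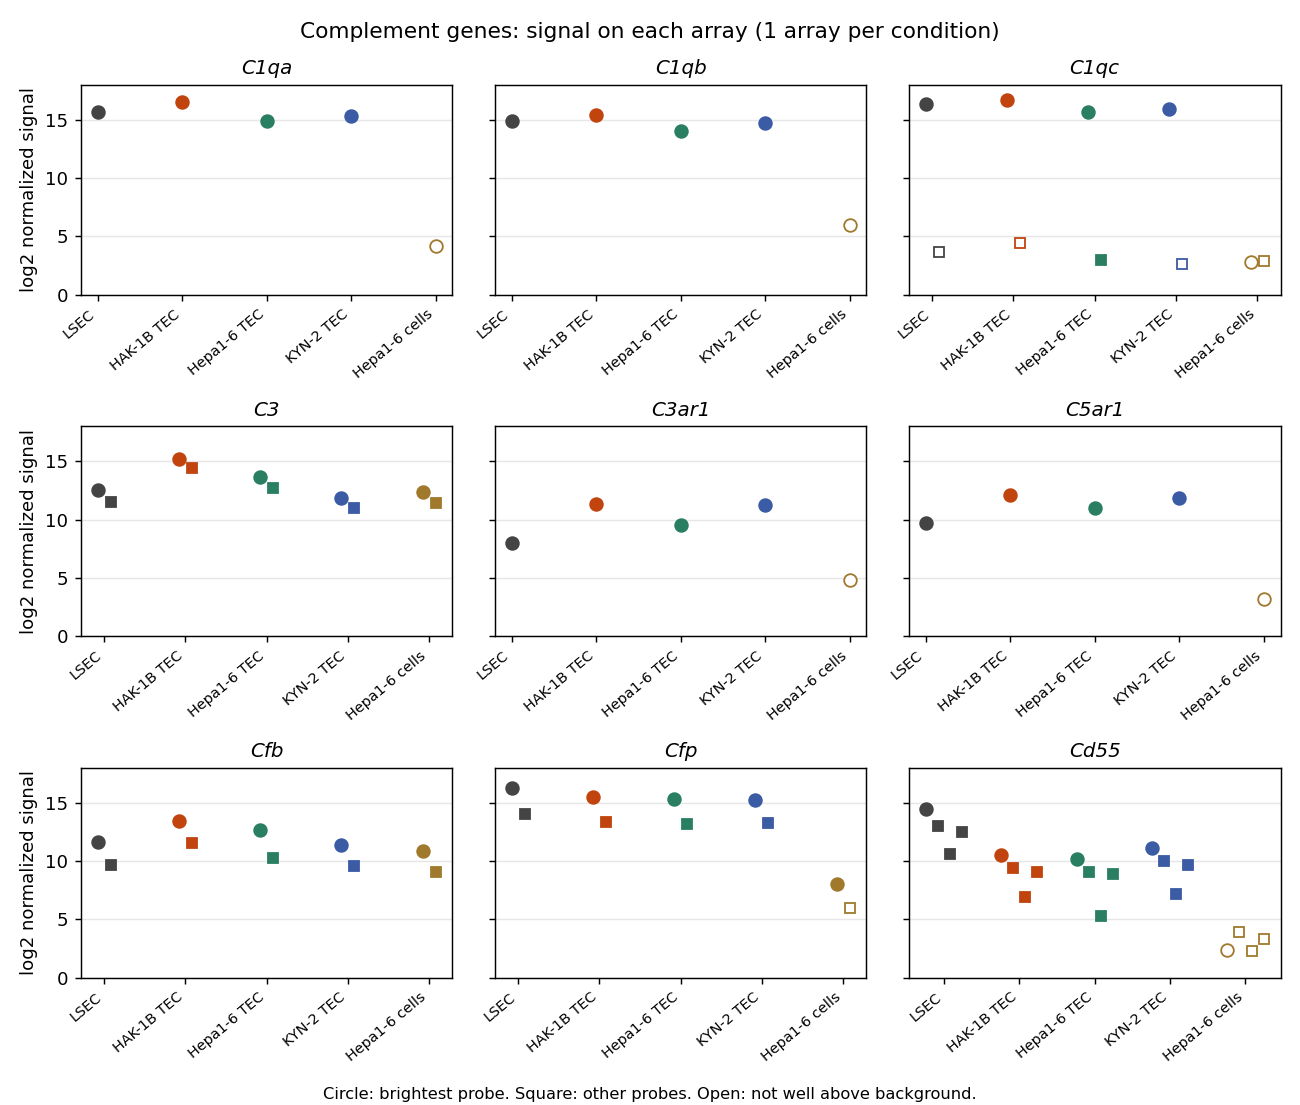
Log2 normalized signal (vertical axis) of every probe of the 9 complement genes on each of the 5 arrays, with 1 panel per gene and no error bars because each condition had 1 array. Circles are the brightest probe, squares the other probes, and open symbols were not well above background. C3 and Cfb were well above background in cultured Hepa1-6 cells, and all 4 Cd55 probes were highest on the LSEC array.

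The 3 genes of C1q were well above background on all endothelial arrays, and their TEC values stayed within 1 log2 unit of the LSEC array. C1qa, the A chain, read 15.72 in LSEC, 16.55 in HAK-1B, 14.92 in Hepa1-6 and 15.36 in KYN-2 TEC. C1qb, the B chain, read 14.91, 15.44, 14.04 and 14.75 on the same arrays. C1qc, the C chain, read 16.34, 16.74, 15.68 and 15.89. Each chain was highest in HAK-1B TEC and lowest in Hepa1-6 TEC. The log2 differences to LSEC were 0.83, 0.54 and 0.40 for C1qa, C1qb and C1qc in HAK-1B TEC, and -0.79, -0.86 and -0.66 in Hepa1-6 TEC. In KYN-2 TEC they were -0.35, -0.16 and -0.45. None of the 3 was called in any TEC. The mean over the TECs was -0.11 with an SD of 0.84 for C1qa, -0.16 with an SD of 0.70 for C1qb and -0.24 with an SD of 0.56 for C1qc (n = 3 tumors), so that each mean was smaller than the spread between tumors. When each array was scaled to its 75th percentile instead, the KYN-2 TEC differences of the 3 chains turned positive, at 0.33, 0.37 and 0.23, while the median of all genes tested lay at -0.09 in that comparison. The same scaling set that median to -0.12 in HAK-1B TEC and 0.42 in Hepa1-6 TEC.

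In any pair of C1q chains, the log2 differences to LSEC were at most 0.43 apart in a TEC. The second C1qc probe, which carries the name of another transcript, was well above background only on the Hepa1-6 TEC array, at 2.95, and gives no further measure. In cultured Hepa1-6 cells none of the 3 chains was well above background. The LSEC signal was at least 865-fold higher for C1qa, at least 489-fold for C1qb and at least 1332-fold for C1qc.

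The 12 macrophage markers had a median log2 difference to LSEC of 0.77, -0.46 and 0.20 in TECs of the HAK-1B, Hepa1-6 and KYN-2 tumors. Under quantile normalization the last was opposite in sign to the C1q chains. The chains turned positive there with the 75th percentile, a scaling for which the marker medians were not computed. Single markers ranged from -2.47 to 2.22 in HAK-1B TEC, from -2.34 to 0.32 in Hepa1-6 TEC, and from -2.34 to 1.62 in KYN-2 TEC. Their summed linear signal was 739906 on the LSEC array and ranged from 522924 to 1180554 in the TECs, with none of them at background. Their part in the C1q values was not tested. In samples of many cells, fewer cells of a type and less RNA per cell cannot be told apart.

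C3, which is cleaved to C3a and C3b, differed most between tumors. Its brightest probe read 12.50 in LSEC, 15.22 in HAK-1B TEC, 13.64 in Hepa1-6 TEC, 11.87 in KYN-2 TEC and 12.34 in cultured Hepa1-6 cells. C3 was 6.60-fold higher in HAK-1B TEC than in LSEC, 2.20-fold higher in Hepa1-6 TEC and 1.54-fold lower in KYN-2 TEC. The second probe gave 7.97-fold and 2.39-fold higher and 1.37-fold lower. With a Z-score of 1.90 the brightest probe missed the call in HAK-1B TEC, whereas the second probe, at 2.10, was called. The mean log2 difference over the TECs was 1.08 with an SD of 1.67 (n = 3 tumors). It was 0.25 without HAK-1B TEC and 1.93 without KYN-2 TEC.

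Cfb, the protease of the alternative pathway convertase, had the same order over the endothelial arrays. It read 11.68 in LSEC, 13.42 in HAK-1B TEC, 12.69 in Hepa1-6 TEC, 11.39 in KYN-2 TEC and 10.88 in cultured Hepa1-6 cells. The ratio to LSEC was 3.36 in HAK-1B, 2.01 in Hepa1-6 and 0.818 in KYN-2 TEC, and Cfb was called in none. Its second probe gave ratios of 3.74, 1.54 and 0.916. The mean log2 difference of Cfb over the TECs was 0.82 with an SD of 1.03 (n = 3 tumors), 0.36 without HAK-1B TEC and 1.38 without KYN-2 TEC. C3 and Cfb were higher in HAK-1B and Hepa1-6 TECs and lower in KYN-2 TEC under all of the scalings tried. Of the 36 pairs among the 9 genes, C3 and Cfb were the pair nearest in pattern, with a root mean square difference of 0.47 over the 5 arrays after each gene was centred on its own mean. This distance takes in the cultured cell array, where the C1q chains were not well above background. On the TEC arrays the C1q chains lay closer together. The largest gap between differences to LSEC was 0.98 for C3 and Cfb, and 0.29 to 0.43 for pairs of C1q chains.

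Cfp, which stabilizes the convertase, differed least between tumors. It read 16.28 in LSEC, 15.47 in HAK-1B TEC, 15.36 in Hepa1-6 TEC, 15.23 in KYN-2 TEC and 8.03 in cultured Hepa1-6 cells. The TECs were 1.75-fold, 1.89-fold and 2.07-fold lower than LSEC, a mean log2 difference of -0.93 with an SD of 0.12 (n = 3 tumors), and the second probe was 1.59-fold, 1.83-fold and 1.74-fold lower. No TEC was called. Scaled to the 75th percentile, the mean was -0.40.

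C3ar1 and C5ar1 were higher in every TEC, whereas C5ar2, the other receptor for C5a, was lower in each, at -2.03, -2.73 and -2.35 on the log2 scale without a call. C3ar1, the receptor for C3a, read 7.97 in LSEC, 11.38 in HAK-1B, 9.52 in Hepa1-6 and 11.27 in KYN-2 TEC, and it was not well above background in cultured Hepa1-6 cells. The log2 differences were 3.41, 1.56 and 3.31, a 9.90-fold higher level in KYN-2 TEC, and C3ar1 was called in HAK-1B and KYN-2 TECs with a Z-score of 2.39 in each. In Hepa1-6 TEC its Z-score was 0.85. C5ar1, the receptor for C5a, read 9.73 in LSEC, 12.10 in HAK-1B, 11.01 in Hepa1-6 and 11.85 in KYN-2 TEC. It was 5.17-fold, 2.44-fold and 4.36-fold higher and was not called, with Z-scores of 1.66, 0.69 and 1.54. C5ar1 and C3 were called in HAK-1B TEC with normexp background correction and with the stricter or no filter on dim probes. With normexp C5ar1 was called in KYN-2 TEC as well, and with the mean of all its probes C3 was called in HAK-1B TEC. For both receptors HAK-1B TEC was highest, KYN-2 TEC next and Hepa1-6 TEC nearest to LSEC. The mean log2 difference was 2.76 with an SD of 1.04 for C3ar1 and 1.93 with an SD of 0.57 for C5ar1 (n = 3 tumors).

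Myeloid markers also differed between these arrays. All 7 markers of tumor macrophages and monocytes were higher than in LSEC in each TEC, with medians of 5.29 for HAK-1B, 3.69 for Hepa1-6 and 4.07 for KYN-2 TEC on the log2 scale. Their summed linear signal was 7498 on the LSEC array and lay between 71859 and 174991 in the TECs, and Gpnmb was not well above background in LSEC. Of these 7, Spp1, Gpnmb, Ly6c2 and Chil3 were also well above background in cultured Hepa1-6 cells and higher there than in LSEC, at 11.86, 12.93, 14.37 and 12.17. All 6 Kupffer cell markers were lower in each TEC, with medians of -4.42, -1.94 and -2.63. Their sum was 430587 on the LSEC array and between 17180 and 101803 in the TECs. Of the 12 neutrophil markers, 11 were higher in HAK-1B and Hepa1-6 TECs and 8 in KYN-2 TEC, with medians of 4.92, 4.35 and 0.88, and Ly6g, Cxcr2, Mmp9 and Ngp were not well above background in LSEC. Their sum was 91881 on the LSEC array and between 85322 and 223126 in the TECs. S100a9 had a log2 signal of 9.46 in LSEC and 16.46, 14.05 and 10.61 in the TECs, and Csf3r 16.45 in LSEC and 15.80, 15.17 and 16.15. Csf3r makes up most of the LSEC sum of neutrophil markers. In cultured Hepa1-6 cells Csf3r read 15.22 and Ly6g 9.74, and these were the 2 of the 12 well above background there. The part of these cells in the receptor values was not tested.

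Cd55, the regulator, was the 1 gene of the 9 that was called in every TEC, and it was lower. Its brightest probe read 14.43 in LSEC, 10.52 in HAK-1B, 10.22 in Hepa1-6 and 11.13 in KYN-2 TEC, and it was not well above background in cultured Hepa1-6 cells. It was 15.1-fold, 18.6-fold and 9.88-fold lower in the TECs, a mean log2 difference of -3.81 with an SD of 0.46 (n = 3 tumors). All 4 probes were called lower in all 3 TECs. Over the probes, the log2 difference ranged from -3.91 to -3.40 in HAK-1B, from -5.37 to -3.61 in Hepa1-6 and from -3.46 to -2.81 in KYN-2 TEC. One of the probes spans 7987 bases of the genome and so crosses an intron. Cd55 has a near-identical neighbouring copy, Cd55b, named Daf2 on the array, and whether its RNA binds the Cd55 probes was not tested. The Daf2 probe was itself called lower in HAK-1B and Hepa1-6 TECs, with log2 differences of -3.67, -3.98 and -2.74.

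Pan-endothelial markers moved beside Cd55. All 14 were lower in HAK-1B and Hepa1-6 TECs and 12 of 14 in KYN-2 TEC, with medians of -2.85, -2.58 and -1.63. Their summed linear signal was 571397 on the LSEC array and between 83323 and 171409 in the TECs. The log2 differences of single markers ran from -3.73 to -0.74, from -4.58 to -1.51 and from -3.30 to 0.53 in the 3 TECs, against -3.91, -4.22 and -3.30 for Cd55. The 10 measured LSEC markers had medians of -3.20, -2.66 and -2.54, with 10, 9 and 8 of them lower. Single LSEC markers ran from -5.02 to -0.22, from -4.41 to 0.97 and from -5.60 to 1.88. The part of these cells in the Cd55 value was not tested.

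**Figure D2:**
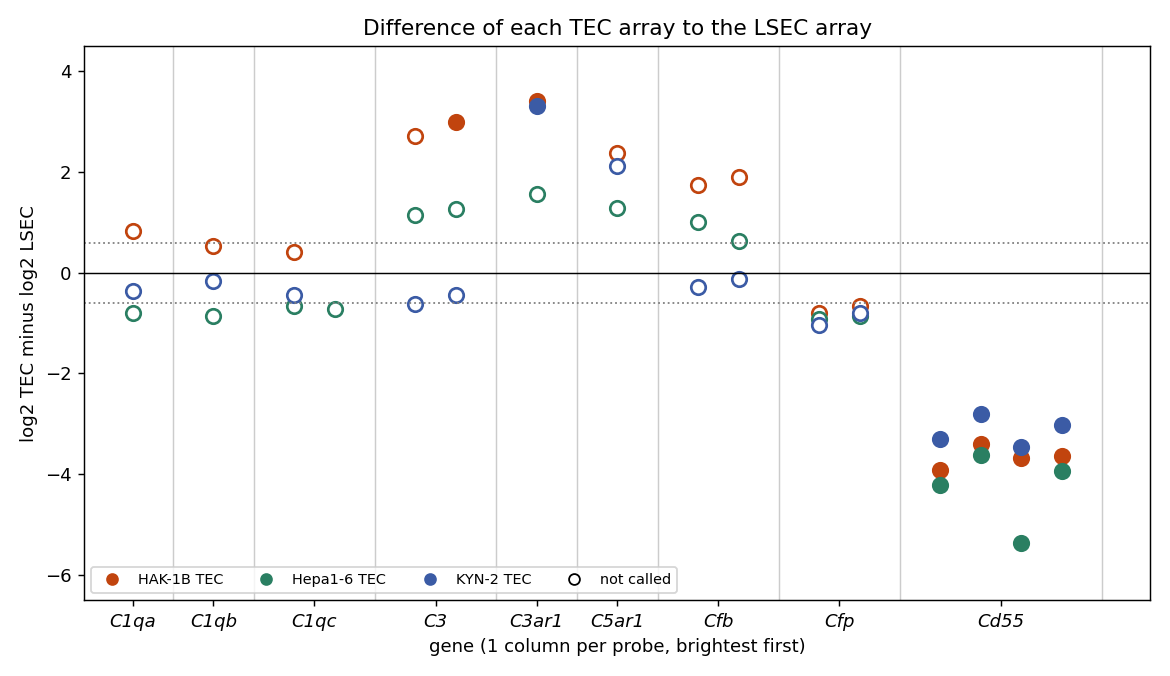
Log2 signal of each TEC minus that of LSEC (vertical axis) for each probe of the 9 genes, with 1 column per probe and colours for the 3 TEC arrays. Filled points were called by ratio and Z-score, and the dotted lines mark ratios of 1.5 and 0.66. All 12 points of Cd55 are filled and lie below 0, the points of C3ar1 are filled in HAK-1B and KYN-2 TECs, and those of C1q, C3 and Cfb lie on both sides of 0.

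Counted by gene, 1 of 9 was called higher and 1 lower in HAK-1B TEC, where 3.11% and 3.94% of all genes tested were called higher and lower. In Hepa1-6 TEC 0 of 9 were called higher and 1 lower, against 4.54% and 2.04%. In KYN-2 TEC 1 of 9 was called higher and 1 lower, against 3.64% and 2.87%. In all 3 TECs together 0 of 9 were called higher, against 0.418% of genes, and 1 of 9 lower, against 0.725%. Without the Hepa1-6 TEC array, 1 of 9 was called higher in both other TECs, against 1.04%, and 1 of 9 lower, against 1.5%, the first being C3ar1 and the second Cd55. By the ratio alone, C3ar1 and C5ar1 were higher in all 3 TECs, where 7.95% of genes were, and Cfp and Cd55 lower, where 12.8% were. The shares over more than 1 TEC were taken over 26771 genes tested in at least 1 of the 3 comparisons. Fewer were tested in each, at 20298 for HAK-1B, 26322 for Hepa1-6 and 19819 for KYN-2 TEC. All 9 genes were tested in each, so these shares are low as a background for them. The LSEC array was shared by the 3 comparisons, and an error on it enters each of them.

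When the 3 TECs were taken as a group against the lone LSEC array in limma, assuming that LSEC varies like the TECs, 0 of 9 genes and 0.0% of 42112 probes passed 0.05 after Benjamini-Hochberg adjustment. At an unadjusted p under 0.05 in limma there were 3 of the 9 genes and 8.5% of all probes. The limma difference was -3.81 with an SE of 0.60 for Cd55 (unadjusted p = 0.0023, adjusted p = 0.443), lower in 3 of 3 TECs. It was 2.76 with an SE of 0.94 for C3ar1 (limma unadjusted p = 0.039, adjusted p = 0.563) and 1.93 with an SE of 0.65 for C5ar1 (limma unadjusted p = 0.037, adjusted p = 0.560), each higher in 3 of 3 TECs. The fit had 2 residual degrees of freedom, and a missing call does not show that a gene did not differ.

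In cultured Hepa1-6 cells, the hepatoma line itself, 6 of 9 genes were called lower than in LSEC, where 4.81% of genes were, and 0 of 9 higher, where 2.59% were. The 6 were the C1q chains, Cfp, C5ar1 and Cd55, of which C5ar1 was not called with normexp background correction. Cfp was 303-fold lower, and LSEC was at least 13.6-fold higher for C5ar1 and at least 355-fold higher for Cd55. A lower call took 51.2-fold here. The bound for C5ar1 lies below that, so its call rests on a signal that was not well above background. C3ar1 was at least 4.01-fold higher in LSEC and was not called. C3 lay close to LSEC, at 1.12-fold lower, and Cfb was 1.74-fold lower. Thus C3 and Cfb were the 2 genes with signal in the cultured cells that came within 1 log2 unit of LSEC.

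The Hepa1-6 TEC array was also set against the cells of its own line. Here 7 of 9 genes were called higher in the TECs, where 4.97% of genes were, and 0 of 9 lower, where 1.57% were. Cfp was 160-fold higher, and the bounds ran from at least 11.8-fold for C3ar1 and 19.1-fold for Cd55 over 33.1-fold for C5ar1, 268-fold for C1qb and 499-fold for C1qa to at least 842-fold for C1qc. C3 was 2.46-fold and Cfb 3.49-fold higher, and neither was called. Lower bounds were needed for all of the called genes except Cfp. A higher call took 21.1-fold here. The bounds for C3ar1 and Cd55 lie below that, so these calls rest on signals that were not well above background.

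Beyond these 9, 45 other complement genes were measured from a list of 54 arranged by class. The median log2 difference to LSEC of the 45 was -1.42, -1.10 and -1.25 in TECs of the HAK-1B, Hepa1-6 and KYN-2 tumors, beside -0.03, 0.07 and -0.03 over all genes tested. In HAK-1B TEC 1 was called higher and 16 lower, in Hepa1-6 TEC 3 higher and 3 lower, and in KYN-2 TEC 2 higher and 9 lower. The shares of all genes called higher and lower, by the same rule, were 3.11% and 3.94%, 4.54% and 2.04%, and 3.64% and 2.87%. The genes called in all 3 TECs were Itgax higher and Cfd and C9 lower. Itgax, a chain of complement receptor 4, read 8.53 in LSEC, 14.75 in HAK-1B, 13.11 in Hepa1-6 and 12.96 in KYN-2 TEC. Cfd, the protease that activates factor B, read 9.54 in LSEC, 6.27 in HAK-1B TEC and 5.26 in Hepa1-6 TEC, and was not well above background in KYN-2 TEC. C9, which forms the pore of the membrane attack complex, read 8.19 in LSEC and 4.67, 3.59 and 5.28 in the TECs.

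By class, the receptors held calls in both directions. Vsig4, a receptor of Kupffer cells for C3 fragments, was called lower in HAK-1B TEC at -4.00 and stood at -2.07 and -2.31 in the others, while Itgb2, which pairs with Itgax, stood at 2.27, 1.18 and 1.52 without a call. In the classical pathway, C2 was called lower at -4.26 in HAK-1B TEC, as was C4b at -3.34 in KYN-2 TEC. In the lectin pathway, Mbl2 was called lower in HAK-1B and KYN-2 TECs, and Fcna, Colec10 and Masp1 in HAK-1B TEC. Of the 7 terminal components, 5 were called lower in HAK-1B, 1 in Hepa1-6 and 4 in KYN-2 TEC, among them Hc, C6, C8a and C8b beside C9. Among the soluble regulators, C4bp was called lower in HAK-1B and KYN-2 TECs and Vtn lower in HAK-1B TEC. Mbl2, Hc, C8a, C8b and C4bp were not well above background in the TECs where they were called lower. Cfi was called higher in Hepa1-6 TEC and Cpn1 higher in Hepa1-6 and KYN-2 TECs. Cfi read 7.72 in LSEC, 11.80 in Hepa1-6 TEC and 12.72 in cultured Hepa1-6 cells. Cpn1, which was not well above background in LSEC, read 9.21 in Hepa1-6 TEC, 7.25 in KYN-2 TEC and 10.87 in the cultured cells. Of the membrane regulators, Cd59a, which blocks the pore, was called lower in HAK-1B TEC at -3.90 and stood at -3.26 and -2.47 in the others. C4a and C4b, C1ra and C1rb, and Cd59a and Cd59b are pairs of related genes, and whether their probes read each other was not tested.

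**Figure D3:**
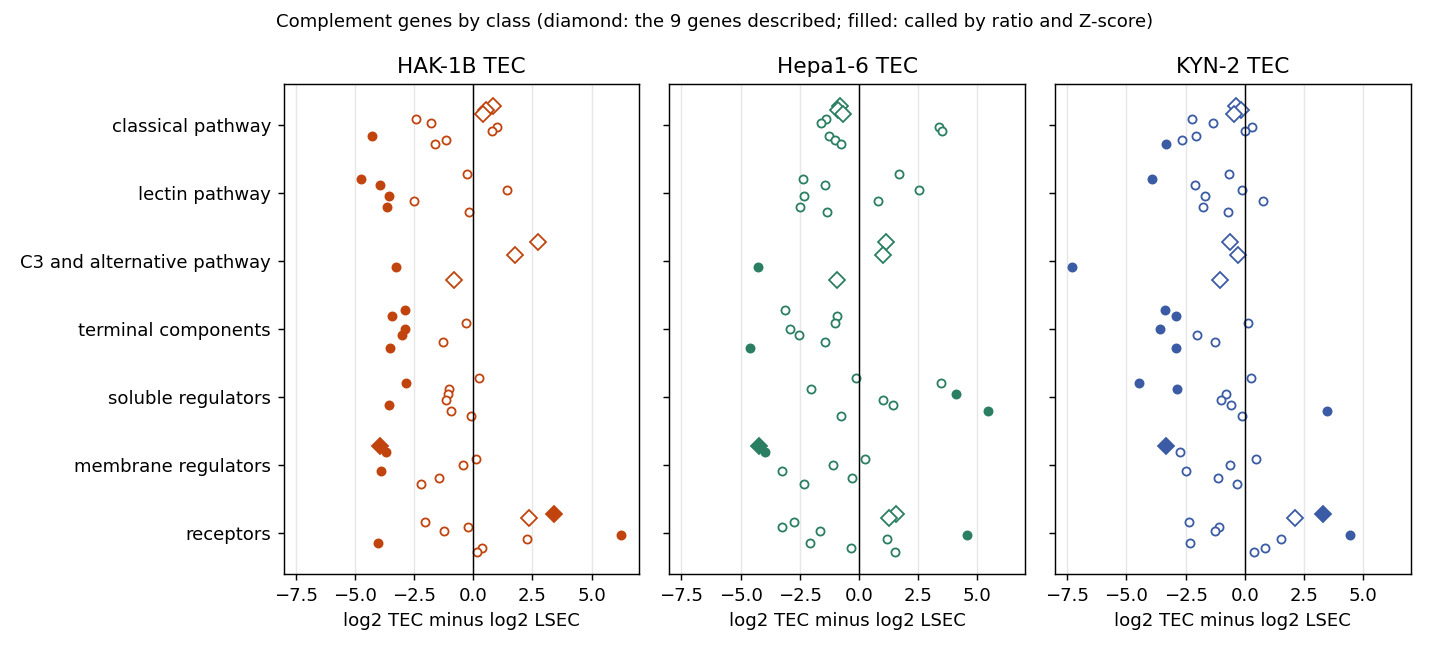
Log2 signal of each TEC minus that of LSEC (horizontal axis) for the 54 complement genes, by class, with 1 panel per TEC and 1 point per gene by its brightest probe. Diamonds are the 9 genes and filled points were called. Terminal components lie mostly left of 0, while C3ar1, C5ar1 and Itgax lie right of it in each panel.

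Hepatocyte markers differed between the TECs too. Of 18, 17 were lower than in LSEC in HAK-1B TEC and 15 on the KYN-2 array, with medians of -3.73 and -2.56, whereas 11 were higher in Hepa1-6 TEC, with a median of 0.55. The summed linear signal was 70067 on the LSEC array, 3925 in HAK-1B, 89398 in Hepa1-6 and 11898 in KYN-2 TEC, and Cyp3a11 was not well above background in LSEC. In cultured Hepa1-6 cells 7 of the 18 were well above background, with a sum of 33856. Alb, Apob, Fgb and Hpx were higher there than in LSEC, at 13.94, 9.95, 12.61 and 12.46, and the other 14 were lower. The part of hepatocyte or cancer cell RNA in the C3 and Cfb values was not tested. The 12 stellate cell and fibroblast markers had medians of 0.29, 1.39 and 1.24 in the same order of TECs, the 10 T and NK cell markers -0.03, 1.19 and 0.16, and the 5 measured B cell markers 0.60, -1.09 and 0.42.

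**Figure D4:**
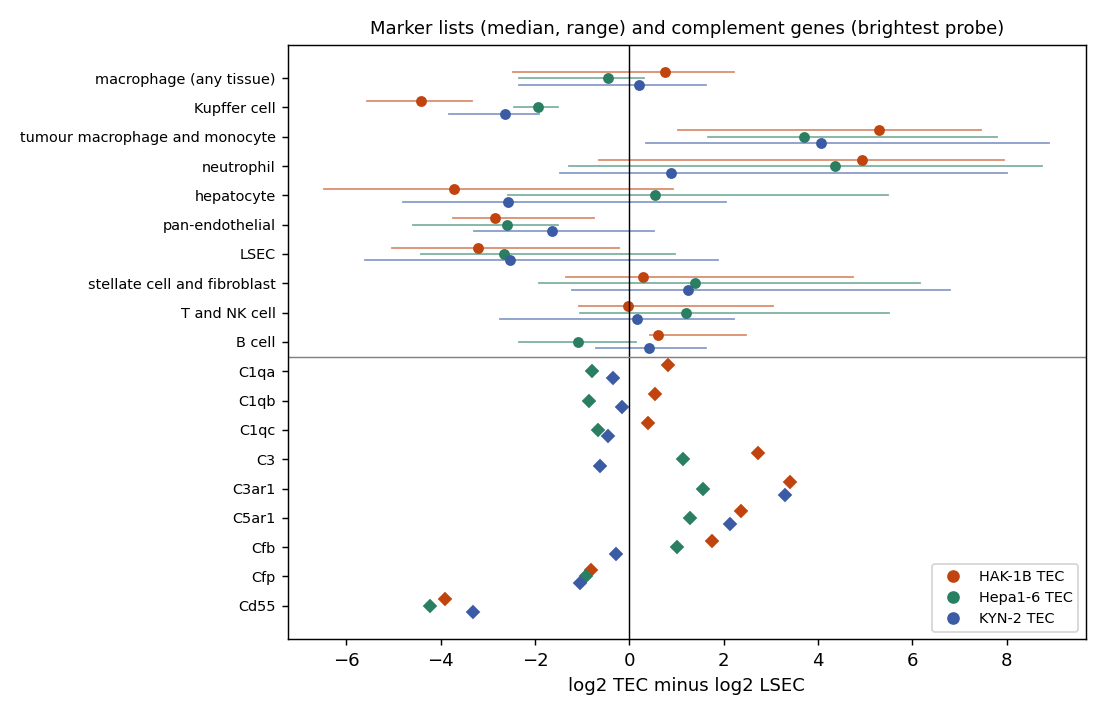
Log2 signal of each TEC minus that of LSEC (horizontal axis) for 10 marker lists, shown as the median (circle) and the range over genes (line), above the 9 complement genes by their brightest probe (diamonds), with a colour for each TEC. Kupffer cell and pan-endothelial medians lie left of 0 and tumor macrophage medians right of it in each TEC, with Cd55 at -3.91, -4.22 and -3.30.

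For each gene, the 3 genes nearest in pattern over the 5 arrays were found among 18794 genes well above background on at least 3 arrays, by the root mean square difference after centring. These values rest on 5 points each and are a description. Except for C3, Cfb and Cfp, 1 of the 5 points, the cultured cells, was not well above background. For those genes the choice of neighbours rests in part on background signal. No C1q chain was among the 3 nearest of another chain. Nearest to C1qb was Dab2, at 0.15, and C1qa was nearest to the probe NAP111445-1 at 0.21, to Ly86 at 0.24 and to Ctsc at 0.24. C1qc was nearest to Tmsb4x at 0.19 and Ctss at 0.23. Nearest to C3ar1 was Adssl1 at 0.10, and to C5ar1 Gm6377 at 0.22, with Itgb2 next but one at 0.28. Cfb lay nearest to Tppp3 at 0.09 and Cfp to Trpm2 at 0.06. Cd55 lay nearest to Pcdh12 at 0.13, which read 14.77 in LSEC and 11.18, 10.84 and 11.84 in the TECs, followed by Fam174b at 0.25 and Ptprb at 0.41. C3 had no gene closer than Tbc1d16 at 0.42, while Cfb lay at 0.47.

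Promoters are given for C1qb and C1qc, whose differences to LSEC lay close together, and for C3, which differed most between tumors. The sequences are the 250 bases before the start in RefSeq on GRCm38.p6, a build other than that of the probe positions, and 7 of the 9 genes were matched, C1qa and Cfb being the others. All lie on the minus strand, C1qb at chr4:136886201-136886450, C1qc at chr4:136892915-136893164 and C3 at chr17:57228137-57228386. Capitals mark matches, on either strand, to TTGCNNAA (C/EBP-like), GGANNNTCC (NF-kB-like), TTCNNNGAA (STAT-like) or GAGGAA (PU.1-like core).
C1qb: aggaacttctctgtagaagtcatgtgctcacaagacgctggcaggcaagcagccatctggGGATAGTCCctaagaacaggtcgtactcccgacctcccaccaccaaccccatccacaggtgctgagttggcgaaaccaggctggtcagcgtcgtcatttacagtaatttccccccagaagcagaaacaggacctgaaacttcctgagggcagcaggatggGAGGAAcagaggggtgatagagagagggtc
C1qc: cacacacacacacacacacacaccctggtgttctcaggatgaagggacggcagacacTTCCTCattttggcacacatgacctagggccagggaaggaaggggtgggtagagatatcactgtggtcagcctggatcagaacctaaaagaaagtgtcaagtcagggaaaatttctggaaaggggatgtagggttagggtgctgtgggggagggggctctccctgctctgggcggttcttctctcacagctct
C3: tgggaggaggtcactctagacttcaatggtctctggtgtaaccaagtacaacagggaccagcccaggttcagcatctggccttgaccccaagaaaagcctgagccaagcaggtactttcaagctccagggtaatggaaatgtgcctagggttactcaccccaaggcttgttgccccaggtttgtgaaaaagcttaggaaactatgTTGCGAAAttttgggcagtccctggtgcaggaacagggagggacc

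The C1qb promoter held a GGANNNTCC and a GAGGAA, the C1qc promoter a GAGGAA on the other strand and the C3 promoter a TTGCNNAA that begins 45 bases before the start. No 2 matches overlapped. The promoters of C3ar1, C5ar1, Cfp and Cd55 held none of the 4. Of 32851 promoters of this length, 9.56% held TTGCNNAA, 7.27% GGANNNTCC, 7.02% TTCNNNGAA and 23.3% GAGGAA. A match is a run of letters and not a site shown to be bound.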

How the data were processed

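Gene expression was measured on 5 arrays. The authors scanned them and deposited, per the file headers from Agilent Feature Extraction 10.7.1.1 (9.5.1.1 in the submitters' processing notes), linear spot intensities with flags. They also deposited a table of normalized intensities, used as an alternative. Annotation is on mm9.

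Without control spots, repeated spots were averaged to 56605 probes. Quantile normalization of the log2 values took all 5 arrays, whereas the methods name the samples compared, and 4460 lincRNA probes were left out of calls. The brightest probe stands for a gene. limma 3.58.1 in R 4.3.3 and Python 3.11.15 were used. Named were the 9 genes, other complement genes called in a TEC, the nearest patterns and leading markers. One gene that this rule names is not reported here. The genes, lists and motifs were chosen with earlier results of these data known. The array paragraph of the methods names Huh-7 where the labels name HAK-1B.

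Scripts were tested on simulated data with the spread between the TECs. There limma made no call even for large changes, and the size rule also called unchanged probes in all TECs, which share the LSEC array. This replaced an earlier simulation with less noise, whose pass limits were dropped once results with the full spread were seen. Alternatives were other scalings, background correction, filters, probe choices, no Z-score and each TEC left out.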

Additional observations from a re-analysis of the deposited data

Results flagged for a closer look

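Of the 9 genes, 5 were higher than LSEC in at least 1 TEC and lower in another. The share of all genes with such mixed signs was not computed, so this count is not a trait of complement genes. With 1 array for each tumor line, these differences between lines were not tested. The gap between the highest and the lowest log2 difference to LSEC was 3.35 for C3, 2.04 for Cfb, 1.62 for C1qa, 1.40 for C1qb and 1.06 for C1qc. In each case HAK-1B TEC was highest. KYN-2 TEC was lowest for C3 and Cfb, and Hepa1-6 TEC for the C1q chains.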

How the results depend on the processing

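Cd55 was called lower in each TEC under all 8 alternatives to the call. In HAK-1B TEC the count of genes called went from 2 to 4 with normexp, with probes well above background on both arrays and with no filter, C3 and C5ar1 being added each time, and to 3 with the mean of all probes, C3 being added. With normexp it went from 2 to 3 in KYN-2 TEC (C5ar1 added) and from 6 to 5 in cultured Hepa1-6 cells (C5ar1 lost). Without the Z-score it was 7 for HAK-1B, 9 for Hepa1-6 and 5 for KYN-2 TEC, and 4 in every TEC at once in place of 1. Of these 4, 2 were higher and 2 lower, where 7.95% and 12.8% of all genes were. The shares of all genes called in single comparisons were not computed under the alternatives, so these counts have no background beside them. With each TEC left out, an alternative chosen after seeing the data, the genes called in every remaining TEC ranged from 1 to 2, the 2 being without Hepa1-6 TEC. With probes well above background on both arrays, 1 gene was left called in cultured Hepa1-6 cells against LSEC and 1 in Hepa1-6 TEC against those cells, since dim probes are then removed. Of 81 values of single genes (mean of TECs minus LSEC), 80 moved by less than the SD over TECs. The 1 that moved by more was Cfp, at -0.40 with the 75th percentile. Many of the 81 could not have moved by more. The 2 filters on dim probes left every value unchanged, as did the mean of all probes for genes with 1 probe. Leaving out 1 of 3 TECs cannot shift a mean by as much as the SD. No sign changed for Cd55, the only gene called in every TEC and so the only one checked. Among genes not called, the means of C1qa, C1qb and C1qc turned positive with the 75th percentile, at 0.40, 0.25 and 0.28. The median over the 9 genes ranged from -0.51 to 0.24 with each TEC left out, from -0.11 with all, and was 0.40 with the 75th percentile. Without HAK-1B TEC the mean fell to 0.25 for C3 and 0.36 for Cfb, and without KYN-2 TEC it was 1.93 and 1.38. In limma no gene, of the 9 or of the rest, passed 0.05 after adjustment under any alternative fitted. Each of these fits set the TECs against the lone LSEC array. A slide block was not fitted, since LSEC, the TECs and the cultured cells lay on separate slides. No paired analysis was possible because a single array was hybridized per condition. Dim probes limit the cultured cell comparisons to bounds.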
